A study of Mus musculus with 6 samples.

Results

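Of 2043 ZBTB43 peaks called against input chromatin in about 491K prospermatogonia of the mouse foetus, 548 were also called against non-specific IgG and had no input-controlled counterpart with 100K cells. These 548 regions are described here. K stands for 1000 cells. Their members were chosen by overlap of the deposited peak lists: a peak of the larger ZBTB43 library called against its input was kept when it shared at least 1 bp with a peak of the same library called against IgG, and was dropped when it shared at least 1 bp with an input-controlled peak of the 100K library. ChIP–seq was made from EGFP+ germ cells sorted from the testes of wild-type male foetuses at 15.5 dpc, which were bred from OG2 fathers that carry an Oct4-EGFP transgene and from mothers given as C57BL/6J in the labels and as C57BL/6J or OG2 in the study's methods, listed as B6;CBA-Tg(Pou5f1-EGFP)2Mnn/J. The larger set comprised ZBTB43 and Input libraries of 491K cells and an IgG library of 415K cells, and the smaller one ZBTB43, IgG and Input libraries of 100K cells each. Cells of several foetuses were pooled. Per the study's methods, the larger amount was combined from frozen batches and then crosslinked, while the 100K cells were crosslinked before freezing. All 6 groups shared genotype, strain, age and the transgene, and each held 1 library. The study's methods count its ChIP–seq as biological duplicates, while the labels number no replicates and give different cell numbers, so both ZBTB43 libraries were kept as groups of their own and no p-value is given. Cell number, chromatin preparation, sequencing depth and the library itself cannot be told apart between the 491K and 100K lists.

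ZBTB43 is a zinc finger protein with a BTB domain. It binds purine–pyrimidine repeats, stretches in which a purine (A or G) and a pyrimidine (C or T) take turns along the strand. The commonest such stretches in mammalian genomes are CA repeats, which read as TG repeats on the opposite strand, and CG-containing variants such as repeated CACG are the ones that most readily leave the right-handed B form for left-handed Z-DNA. Prospermatogonia are mitotically arrested foetal male germ cells whose genome is being newly methylated at CpG sites at this age.

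The sequences show what kinds of DNA the 548 regions hold. They were read from the forward strand of GRCm38 (mm10), 5′ to 3′, 180 bases of each peak, and capitals mark unbroken alternation of purine and pyrimidine over at least 20 bp, called an alternating tract below. The 3 members with the highest input-controlled scores are given first, because they show interrupted repeats. That near Prelp runs from an unbroken CA tract of 42 bp into an interrupted stretch.
Hhat intron, score 1417, chr1:192670621-192670800: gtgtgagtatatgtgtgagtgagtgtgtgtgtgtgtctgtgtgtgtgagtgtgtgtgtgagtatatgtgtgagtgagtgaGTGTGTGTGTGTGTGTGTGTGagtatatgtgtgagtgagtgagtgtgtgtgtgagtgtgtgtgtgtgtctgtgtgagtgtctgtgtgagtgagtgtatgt
Rab3c intron, score 1217, chr13:110070253-110070432: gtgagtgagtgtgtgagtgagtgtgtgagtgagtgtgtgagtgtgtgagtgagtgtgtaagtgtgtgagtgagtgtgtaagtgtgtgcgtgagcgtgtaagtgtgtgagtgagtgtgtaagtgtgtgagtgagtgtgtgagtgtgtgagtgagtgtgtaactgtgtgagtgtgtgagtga
Near Prelp, score 1209, chr1:133925462-133925641: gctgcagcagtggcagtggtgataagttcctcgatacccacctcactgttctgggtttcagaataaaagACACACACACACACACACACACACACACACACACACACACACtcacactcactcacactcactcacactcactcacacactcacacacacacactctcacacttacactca
Part of a tract of 601 bp, one of the 3 longest, shows a CA repeat broken by TA steps, which keep the alternation.
Intergenic, nearest gene Nwd2, score 393, chr5:63413100-63413279: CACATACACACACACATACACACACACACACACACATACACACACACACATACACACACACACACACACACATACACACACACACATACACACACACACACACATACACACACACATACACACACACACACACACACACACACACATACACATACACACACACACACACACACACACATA
The highest-scoring member with a CACG tract, meaning at least 2 CACG units in tandem on either strand, carried CpG sites inside the alternating stretch.
Zbed4 intron, score 948, chr15:88755962-88756141: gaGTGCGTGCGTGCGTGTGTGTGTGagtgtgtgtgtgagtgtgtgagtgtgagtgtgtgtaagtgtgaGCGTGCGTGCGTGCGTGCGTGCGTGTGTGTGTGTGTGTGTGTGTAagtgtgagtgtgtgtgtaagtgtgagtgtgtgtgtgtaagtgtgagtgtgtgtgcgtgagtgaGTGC
The member shown last had a score next to the median. It carries a purine run of 41 bp beside its CA tract of 26 units.
Gm11639 intron, score 153, chr11:104697647-104697826: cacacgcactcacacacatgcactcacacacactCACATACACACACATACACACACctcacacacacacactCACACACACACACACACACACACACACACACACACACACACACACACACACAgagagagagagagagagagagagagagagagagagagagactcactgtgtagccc

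The score is the authors' peak score, read as 10 times −log10 of the MACS2 q-value, which is computed against a control and so is not on one scale for Input and IgG. Since it entered the choice of the regions, it is given as a description. Input-controlled scores of the 548 members ran from 13 to 1417, with a median of 152.5 and an interquartile range of 71.75 to 275. The scores of the IgG-controlled peaks under them ran from 13 to 1161, with a median of 82.5. Among all 2043 input-controlled peaks, 43.0% shared bases with an IgG-controlled peak of the larger library and 29.6% overlapped an input-controlled peak of 100K cells. The 330 IgG-supported peaks that recurred with 100K cells had a median input-controlled score of 925.5 (65 to 44423). Only 8 members reached that median, and only 3 of the recurring peaks lay at or below the members' median, so both sets overlapped in score but were centred far apart. In width the members measured 309 bp at the median (interquartile range 202.75 to 464) and the recurring peaks 406 bp. Over the members, Spearman's rho was 0.75 between the input- and IgG-controlled scores, which share the ZBTB43 library, 0.48 between score and width, and 0.13 between score and the longest alternating run (n = 548).

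**Figure D1:**
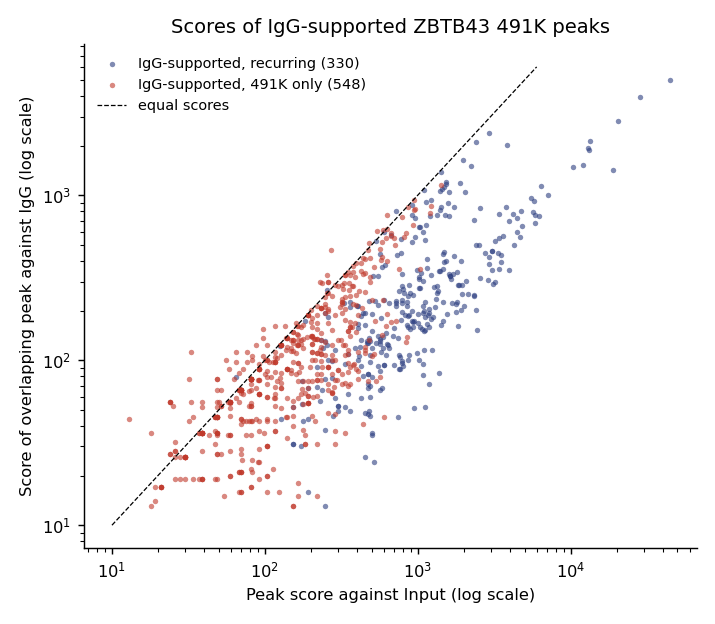
Score of each IgG-supported 491K peak against Input (x axis, log scale) and of the IgG-controlled peak it overlaps (y axis, log scale), 1 point per peak. The 548 members (red) fill the lower left, with medians of 152.5 and 82.5, and the 330 recurring peaks (blue) extend to 44423 and 5004; many members lie along the dashed line of equal scores.

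Overlap with the IgG-controlled peak was rarely a matter of touching edges. Both lists were called on the same ZBTB43 library and overlap was part of the rule, so its extent is a description and no independent support. At the median member, 92.7% of the bases lay within the IgG-controlled peak, 318 members were covered over at least 90% of their length, and 6 overlapped a second IgG-controlled peak. The 554 peaks that touched a member made up 61.8% of the IgG-controlled list. The smallest overlaps were 63 bp for a member 13022 bp from Muc2, 104 bp for one at a coding exon of Rasgrf2 and 107 bp for one 25.4 kb from Shprh, which also had the lowest input-controlled score, 13, against 44 with IgG. On the other side of the rule, the IgG-supported peaks that were dropped with the least overlap shared 115 bp with a 100K peak (13.8 kb from Itch, score 175) and 118 bp (Brsk1, score 254, and Rims2, score 484). No member was a near miss in position: the closest input-controlled 100K peaks lay 1173 bp away, at Zfp516, 2375 bp away, 31.4 kb from Dap, and 3720 bp away, 52.2 kb from Mocs1. The median distance was 1176620 bp.

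The member with the highest score against both controls lay in an intron of Hhat, which encodes the acyltransferase that palmitoylates Hedgehog proteins (chr1:192670597-192671471). It scored 1417 against Input and 1161 against IgG and was 875 bp wide. It was also the only member that overlapped 1 of the 18 IgG-controlled peaks of 100K cells, with a score of 59 there, although the input-controlled 100K list had no peak on it. Over the whole input-controlled list, 0.881% of peaks overlapped an IgG-controlled 100K peak, and the other 17 were recurring peaks. A second member followed in the same intron (chr1:192669618-192670414), with scores of 545 and 611. The first stands on the interrupted GT repeat printed above.

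An alternating tract occurred in 475 of 548 members, 86.7% (95% Wilson interval 83.6 to 89.3). In windows of 309 bp, the members' median width, laid end to end over the genome, 5.58% held one. Regions of each member's own width placed 2000 bp to its left and right held one in 8.21% and 9.12% of cases. A CA tract, at least 10 CA or TG units in tandem, was present in 67.9% of members (63.9 to 71.7) and 2.97% of genome windows, and a CACG tract in 10.8% (8.44 to 13.6) and 0.530%. CpG sites inside an alternating tract, where cytosine methylation and alternation meet, were found in 174 members, 31.8% (28.0 to 35.8), against 1.41% of genome windows. Counting error is all that these intervals cover, since the peaks came from 1 library.

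Compared with the recurring peaks, the members held alternating tracts less often, with a difference of −8.17 percentage points (95% Newcombe interval −11.8 to −4.25), and CA tracts less often, with a difference of −26.7 points (−31.1 to −21.8). CACG tracts (10.8% against 17.9%) and CpG inside tracts (31.8% against 41.2%) were also rarer in members, with intervals of −12.2 to −2.38 and −16.0 to −2.91 points. Against the 891 peaks that were called against Input alone and only with 491K cells, the members were richer in all 4 features over the whole peak, by 20.6, 6.49, 5.60 and 16.2 points in the same order. Those 891 peaks, called input-only peaks below, were narrow, 143 bp at the median. Another 274 peaks called against Input alone recurred with 100K cells and are not among them. In the central 200 bp of each peak, which sets one width for all, an alternating tract was present in 77.6% of members and 69.4% of these peaks (difference 8.19 points, 3.49 to 12.7), but a CA tract in 47.1% of members and 64.2% of them (−17.1 points, −22.3 to −11.8). For CACG tracts and CpG inside tracts the central windows differed by 1.72 and 3.98 points, with intervals that included 0 (−0.900 to 4.60 and −0.426 to 8.53). The members thus had alternating stretches near their centres more often, and CA tracts there less often, than input-only peaks.

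**Figure D2:**
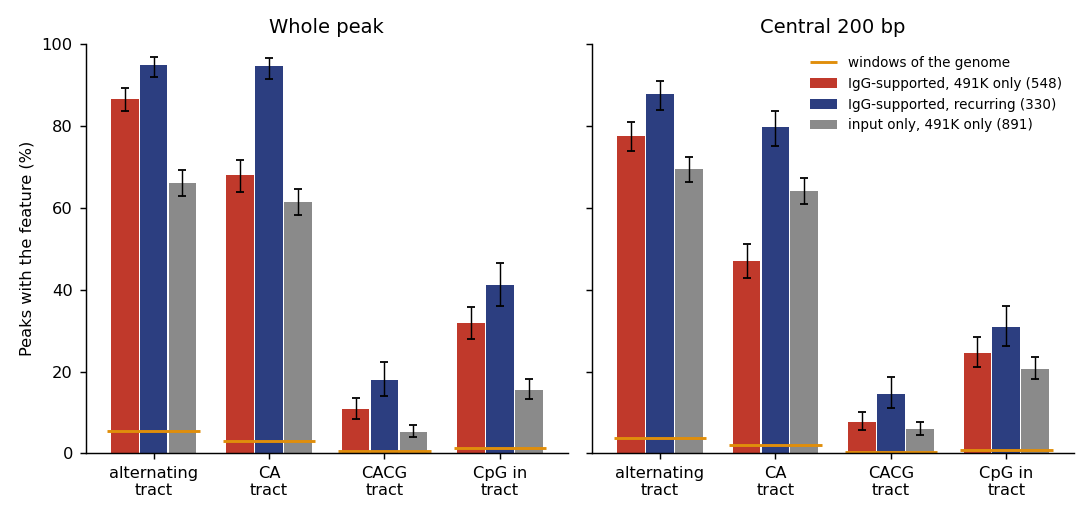
Share of peaks (%) with an alternating tract, a CA tract, a CACG tract and a CpG inside an alternating tract, over the whole peak (left) and its central 200 bp (right), with 95% Wilson intervals; orange lines give the share of genome windows of 309 bp (left) and 200 bp (right). Members (red) lie between recurring (blue) and input-only peaks (grey) over the whole peak and below both for CA tracts in the central 200 bp, 47.1% against 79.7% and 64.2%.

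Within the tracts, TA steps were commoner in the members. The longest tract of a tract-holding member was pure CA or TG in 27.4% of 475, against 41.2% of 313 recurring and 43.8% of 589 input-only peaks. At least 1 TA step was present in 61.1%, 20.2 points above the recurring peaks (13.1 to 27.0) and 14.9 points above the input-only peaks (8.86 to 20.7). At least 1 CG step was present in 29.3% of members, 35.5% of recurring and 19.4% of input-only peaks, where only the difference from the input-only peaks (9.91 points, 4.74 to 15.1) had an interval clear of 0. Of the steps from pyrimidine to purine in the members' longest tracts, 86.1% were CA or TG, 8.66% TA and 5.26% CG. The median longest alternating run was 45 bp (interquartile range 27 to 110.25) in the 548 members, 57 bp in the recurring and 37 bp in the input-only peaks, and 146 members (26.6%) held a tract of at least 100 bp. Inside protein-coding genes the CA strand of the longest tract was the coding strand in 100 members and the template strand in 122, 45.0% (38.6 to 51.6), an interval that includes an even split.

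Peak centres were not pinned to the longest tract, though a peak may hold others nearer its centre. Among the 475 members with a tract, the middle of the longest one lay 70.5 bp from the peak centre at the median. The value was 34.5 bp in input-only peaks with a tract, a class that was also narrower, and 81.0 bp in recurring peaks with a tract. Around the centres of members, alternating tracts covered at most 50.5% of positions in 20-bp bins and 47.4% over the central 80 bp, falling to 20.9% at 200 bp and 2.89% at 580 bp.

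**Figure D3:**
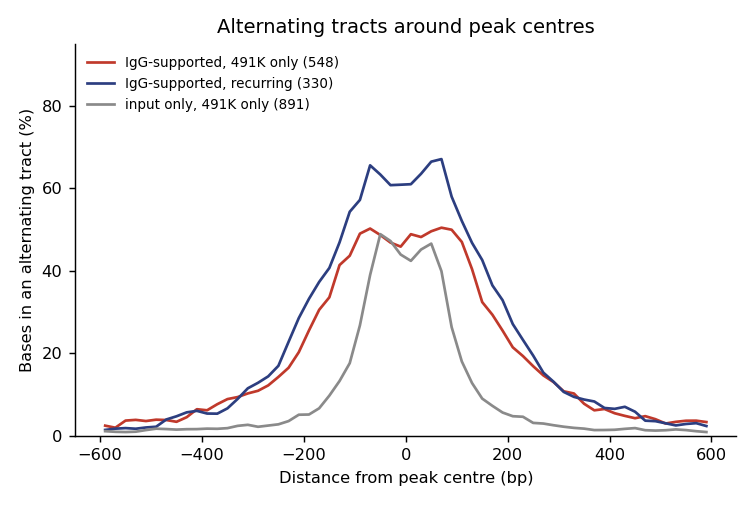
Share of positions (%) that lie in an alternating tract of at least 20 bp, in 20-bp bins by distance from the peak centre (bp), for members, recurring peaks and input-only peaks seen only with 491K cells. Members (red) form a plateau that reaches 50.5%, below the recurring peaks at 67.1% and wider than the input-only peaks, which reach 48.9%.

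The 73 members without an alternating tract were not of one kind. Their median score was 81, against 166 for members with a tract, and their median width 216 bp against 327 bp. Over each peak, the share of steps between neighbouring bases that pass from purine to pyrimidine or back was counted as a measure that tolerates interruptions; this measure and its threshold of 70% were chosen after the sequences of the highest-scoring members had been seen. Of the 73, 31 reached 70% (42.5%, 31.8 to 53.9), against 32 of 302 input-only peaks without a tract (10.6%) and 1 of 17 recurring peaks without one, differences of 31.9 points (20.5 to 43.7) and 36.6 points (12.9 to 49.0). Among 8573 windows of the genome, 0.268% reached it. The second Hhat peak (75.6% of steps), Zdhhc9, a palmitoyltransferase gene on the X chromosome (76.6%), and Corin, which encodes a serine protease (73.2%), were of this kind. Of the other 42, 10 held a run of at least 20 bp of purines or pyrimidines alone, 8 overlapped coding sequence, and 24 had neither. Some of the 42 lay close under the threshold, such as Rab3c (67.5%) and the member nearest to Mavs (69.3%), so it does not part clear kinds.

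Several of the members without a tract repeated themselves in tandem. The measures of this paragraph, self-match and tandem GTGA, were also chosen after sequences of members had been seen. A peak or window was shifted against itself by 1 to 200 bp, but by no more than 50% of its length, so narrower ones less far. The largest share of matching bases, a self-match, was at least 60% in 50 of the 73 (68.5%) and in 0.740% of genome windows without a tract. It was also common in the other peaks without a tract, 68.9% of the input-only and 82.4% of the 17 recurring ones, and it was found in 96.4% of members with a tract. Of the 24 members with neither run nor coding sequence, 15 reached it. In an intron of Galnt9, an O-glycosylation enzyme gene, the member of score 455 matched itself by 96.2% at 15 bp and had no alternating run over 3 bp. At Rab3c, a small GTPase of vesicle release, the score was 1217, the longest unbroken alternation 11 bp, and the self-match 72.9% at 20 bp. The Rab3c sequence printed above is an interrupted GT repeat. Tandem GTGA, at least 3 units on either strand, was found in 24 members (4.38%, 2.96 to 6.43) and 2 of the 8573 windows. It was not a mark of members without a tract: 22 were among the 475 with a tract (4.63%) and 2 among the 73 without (2.74%). Of the 17 recurring peaks without a tract, 2 held it. It was found in 2.42% of recurring and 0.898% of input-only peaks, and the interval of the difference included 0 for the former (−0.735 to 4.33 points) and not for the latter (1.82 to 5.58 points). In the central 200 bp, the difference from recurring peaks was 2.44 points, with an interval (0.180 to 4.50) that lay above 0. Runs of purines or pyrimidines alone were rarer in members (6.20%) than in input-only peaks (21.1%), a difference of −14.9 points (−18.2 to −11.4).

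**Figure D4:**
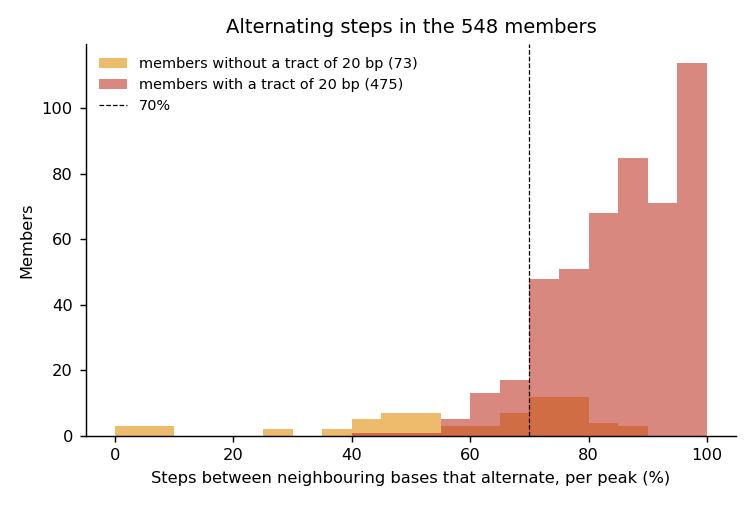
Number of members (y axis) by the share of steps between neighbouring bases that alternate purine and pyrimidine (x axis, %), for the 475 members with an alternating tract (red) and the 73 without (orange); the dashed line marks 70%. In the group without a tract, 31 lie at 70% or above.

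Within the members, CA tracts were commoner at higher scores. From the lowest to the highest quartile of the input-controlled score, a CA tract was present in 43.8%, 61.3%, 80.4% and 86.0%, and an alternating tract in 75.2%, 84.7%, 93.5% and 93.4%. Peak width went along with score, from a median of 195 bp to 435 bp, and the share with a CA tract in the central 200 bp was 35.8%, 45.3%, 56.5% and 50.7%. The part of width in the pattern over whole peaks was not tested.

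The members also differed by the ratio of their scores, a grouping chosen after the plot of scores had been seen. Because the scores against Input and IgG are not on one scale, near-equal numbers do not mean equal enrichment over both controls. These scores also entered the choice of the members. Members whose IgG-controlled score was under 50% of the input-controlled one numbered 178, those at 50% to under 80% numbered 140, and those at 80% or more numbered 230. An alternating tract was present in 89.3%, 87.1% and 84.3% of them, with intervals that overlapped. A CA tract, by contrast, was present in 83.1% (77.0 to 87.9), 76.4% (68.8 to 82.7) and 50.9% (44.4 to 57.3), and in the central 200 bp in 66.9%, 53.6% and 27.8% (22.4 to 33.9). The median scores of the 3 sets were 219, 166 and 91. At input-controlled scores of 30 to 99, the central share was 58.8% of 34 members (42.2 to 73.6) under 50% and 34.3% of 108 (26.0 to 43.6) at 80% or more, with intervals that overlapped and median widths of 240 and 232.5 bp. At scores of 100 to 299, it was 69.8% of 86 members (59.4 to 78.5) under 50% and 27.5% of 69 (18.4 to 39.0) at 80% or more, and at 300 and above it was 67.2% of 58 (54.4 to 77.9) and 17.1% of 35 (8.10 to 32.7). In these higher ranges, median widths were 288.5 and 506 bp, then 299 and 663 bp, so the members with near-equal scores were also the wider ones there. Hhat, Rassf4, Zbed4 and the member nearest to Arid1b belonged to the near-equal set, while Rsrc1, Wdhd1 and the member nearest to Pou3f3 belonged to the set under 50%. Of the recurring peaks, 82.7% lay under 50% and 4.55% at 80% or more. Recurrence was itself defined on an input-controlled list and went with high input-controlled scores, so these shares are a description only.

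**Figure D5:**
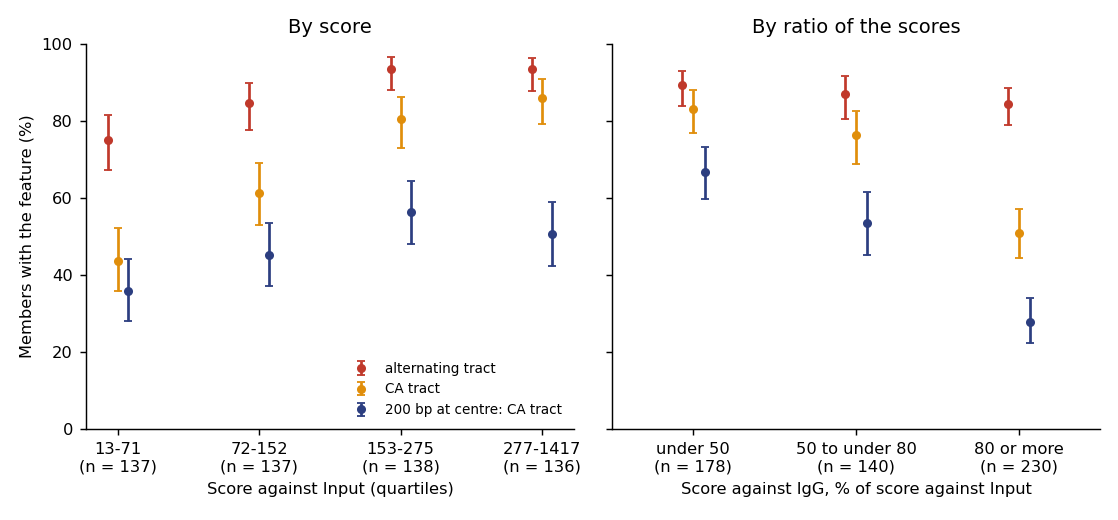
Share of members (%) with an alternating tract, a CA tract, and a CA tract in the central 200 bp, with 95% Wilson intervals, by quartile of the input-controlled score (left) and by the IgG-controlled score as a percentage of it (right). On the right, alternating tracts stay between 84.3% and 89.3% while central CA tracts go from 66.9% to 27.8%.

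Members and recurring peaks of like score were set side by side, with the range chosen after the scores were known. At 200 to 399, 147 members and 32 recurring peaks had median widths of 379 and 387.5 bp, and an alternating tract was present in 94.6% (89.6 to 97.2) and 90.6% (75.8 to 96.8). A CA tract was present in 85.7% (79.1 to 90.5) and 90.6% (75.8 to 96.8), with overlapping intervals. In the central 200 bp, it was present in 57.8% (49.7 to 65.5) of these members and 81.2% (64.7 to 91.1) of these recurring peaks. At 400 to 799, 54 members were wider than 99 recurring peaks (554 against 408 bp). There an alternating tract was present in 90.7% of members (80.1 to 96.0) and 97.0% of recurring peaks (91.5 to 99.0). The direction was opposite to that at 200 to 399, and the intervals overlapped in both ranges. A CA tract was present in 77.8% of members (65.1 to 86.8) and 97.0% of recurring peaks (91.5 to 99.0). The central values for CA tracts were 37.0% (25.4 to 50.4) and 76.8% (67.5 to 84.0).

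By annotation, 268 members (48.9%, 44.7 to 53.1) were centred in introns, 224 (40.9%) between genes, 44 (8.03%) in promoters, taken as 3000 bp upstream to the start site, and 12 (2.19%, 1.26 to 3.79) in exons. The intervals of the difference from the recurring peaks included 0 for all 4 classes. From the input-only peaks, the members differed in introns (9.96 points, 4.68 to 15.2) and exons (−3.87 points, −5.87 to −1.76). The members lay on 19 autosomes in 543 cases, 4 were on X and 1 on Y. Per 100 Mb, autosomes held between 14.1 (chromosome 4) and 32.6 (chromosome 17), and X held 2.34. The whole input-controlled list had 24 of 2043 peaks on X. X held 0.730% of members, 0.606% of recurring and 1.35% of input-only peaks, with intervals that overlapped. Soft-masked repeat sequence made up 99.3% of the median member.

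Among the 10 highest-scoring members, 6 lay in protein-coding genes, all in introns. Rsrc1, a gene for a protein linked to splicing, held a member of score 1039 (chr3:67073561-67073874) with a tract of 136 bp and 64 tandem CA units, at an IgG-controlled score of 356. Rassf4, a Ras-association domain gene, held one of 966 (chr6:116656057-116657512) that was 1456 bp wide with 14 separate alternating tracts. In Zbed4, a zinc finger gene, the scores were 948 and 941 (chr15:88755654-88756290), with 6 tandem CACG units and 16 CpG sites inside tracts. Dcc, the netrin receptor of axon guidance, had 948 and 814. The member 4.0 kb from Prelp, a matrix proteoglycan gene, had 1209 and 779. The last 3 were intergenic at a distance: 638 kb from Psat1 (930 and 660), 616 kb from Arid1b (859 and 851) and 674 kb from Pou3f3 (846 and 138).

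Protein-coding genes with the centre of a member numbered 252, 1.15% of 21924. They were long, 128.3 kb at the median against 17.4 kb for all protein-coding genes, and the share with a member was 0.408% of genes under 50 kb, 2.25% of those of 50 to under 200 kb, 7.82% of those of 200 to under 500 kb and 14.3% of longer ones. Stau2, which encodes a double-stranded RNA-binding protein of RNA transport, and the gene model Gm37240 held 3 members each, with scores of 24 to 333 and 26 to 284, and 18 genes held 2. Beside Hhat, pairs were found in Auts2, Hdac9, Ncam1, Ptprg, Prkg1, Ksr2, Tenm3 and Rab3c. In Ptprg, a receptor tyrosine phosphatase gene, both scored 153, and in Hdac9, a class IIa histone deacetylase gene, 47 and 179.

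A list of 17 loci shown in the study's own plots or assays was searched. A member lay within the gene or 10 kb of it at 4: Hhat, Tshz2, Dhx35 and Plekhh2. Under that definition, 352 of all 21924 protein-coding genes had one. The listed loci include examples chosen for display from peaks of these same libraries. The counts are therefore a description and cannot show enrichment at these loci. Whether a member is the displayed peak was not tested. The Dhx35 member (chr2:158839146-158839500, an intron of an RNA helicase gene) scored 289 against Input and 284 against IgG, and 351 of its 355 bp formed 1 alternating tract that held all 54 of its CpG sites. Tshz2, a teashirt family zinc finger gene, had introns with members of 99 and 455, with longest tracts of 45 and 35 bp. The Plekhh2 member, 584 against Input and 522 against IgG, was 1555 bp wide with 27 alternating tracts.

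In the gene lists, to be read against 1.15% of all protein-coding genes with a member, the germ cell and piRNA genes had a member in 0 of 36, the genes of DNA methylation and chromatin silencing in 0 of 29, and the genes of break repair, topoisomerases and Z-DNA binding in 1 of 30. Recql, a DNA helicase gene, was that 1, with an intronic member of score 167 and a tract of 40 bp. Zbtb7c was the only 1 of 41 ZBTB family genes, with 117 and a tract of 83 bp. Of 47 long genes of neuronal adhesion and synapse, 5 (10.6%) held a member: Auts2, Cdh13, Cntnap2, Csmd1 and Nlgn1. That share was not above the 14.3% of all protein-coding genes of 500 kb or more. Nlgn1, a postsynaptic adhesion gene, had the highest score of these, 487, with a tract of 73 bp, and Cntnap2 and Csmd1 had 175 and 153. Median gene length was 1104 kb in that list and between 19.3 and 49.5 kb in the other 4, and its part in these counts was not tested.

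Near start sites, 18 members lay within 1000 bp of a protein-coding transcript start, and 12 of them held an alternating tract. Wdhd1, a replication factor gene, had the highest score (668) with a tract of 787 bp, the longest of all, 204 bp from an annotated start (chr14:47256465-47257331). Upstream of Nol6, a nucleolar gene, a 131-bp member of score 597 held 46 tandem CA units 90 bp from the start. Capza1, an actin capping gene, had 601 against Input and 45 against IgG. At M1ap, a gene needed for meiosis in males, the member scored 273 and 101 and held 8 alternating tracts with 14 CpG sites inside them. Paip1, which encodes a partner of poly(A)-binding protein, had equal scores of 255 and a tract of 391 bp.

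Coding sequence was overlapped by 10 members (1.82%, 0.994 to 3.33), against 8.08% of input-only peaks, a difference of −6.26 points (−8.40 to −4.05). Of the 10, 2 held an alternating tract, Asap3 (386, with a tract of 25 bp) and Dnah10 (221, 27 bp). The others were Myh1, a skeletal myosin heavy chain (318 against Input and 72 against IgG), Acta1, skeletal alpha-actin (260 and 66), Kcnh2, a cardiac potassium channel (179 and 38), and Nlgn3 (92), Adgrl1 (59), Rasgrf2 (57), Hid1 (49) and Dyrk2 (26). In these 8 the longest alternating run was 7 to 11 bp, and all 8 had an input-controlled score at or below 318.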

How the data were processed

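ChIP–seq libraries were made by the authors from ZBTB43, IgG and input chromatin of sorted prospermatogonia. Per the submitters' processing notes and the study's methods, reads were converted with bcl2fastq 1.9.0, trimmed with Trim Galore 0.6.0, aligned to mm10 with BWA 0.7.17 and filtered with SAMtools for properly paired reads with a mapping quality of at least 30, and duplicates were marked. Peaks were called with MACS2 2.2.7.1 at a q-value of 0.05 for each ZBTB43 library against each control, and blacklisted regions were removed. Such filters can take away fragments that lie wholly inside repeats. The deposited score of each peak was used as given by the authors. The study's methods give a minimum number of reads per library, but the lists hold no read counts, so the depth reached by each library is unknown here. The 4 peak lists and no signal track were used.

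Overlaps (at least 1 bp) were computed with Python 3.11.15, NumPy 2.4.6 and pandas 2.3.3, and the number of members was checked with bedtools 2.31.1; the functions were tested on simulated data. Intervals were 95% Wilson intervals for shares and Newcombe intervals for differences (SciPy 1.17.1). Sequence came from the RefSeq GRCm38.p6 assembly, genes from GENCODE M21, and figures were drawn with Matplotlib 3.10.9. Some member sequences are not reported here. Motifs were searched on both strands, and tracts of different kinds may overlap. Every 1000th genome window was used for alternating steps, self-match and GTGA, and all windows for the other features. The central 200 bp of peaks narrower than that reach into their flanks. A member was assigned to the class of its centre, promoters first. Text names the 10 members of highest score, the extremes of IgG-controlled score, tract length, overlap and distance, members near the median score, at coding sequence or within 1000 bp of a start site, and genes of the loci and lists given; Corin was added after its values were seen. The members, lists and tests were chosen with earlier results of these data known. No test was made, since each group held 1 library by the labels.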

Additional observations from a re-analysis of the deposited data

How the results depend on the processing

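No paired analysis was possible because every group comprised a single library, and for the same reason no library could be left out in turn. Of 39 alternatives, 16 stayed within the interval of the reported value or, for counts, within 1.5 times of it. The number of members was 613 at 50% reciprocal overlap, 515 at a q-value of 0.01 and 541 after peaks within 200 bp were merged. The reciprocal rule was applied to the IgG-controlled and the 100K overlap alike. Members gained under it were IgG-supported peaks that share bases with a 100K peak, but too few for 50% reciprocal overlap. The share with an alternating tract was 71.5% at a minimum of 30 bp, 91.2% at 14 bp, 77.6% in the central 200 bp and 90.7% with peaks widened by 100 bp on each side. CA tracts were present in 44.3% at 15 units and 47.1% in the central 200 bp. CACG tracts were present in 2.37% at 4 units and 7.66% in the central 200 bp, and CpG inside tracts in 27.7% at 30 bp and 24.6% in the central 200 bp. With protein-coding genes only, introns took 43.1%, promoters 5.29% and intergenic sequence 49.3%. Promoters reaching 1000 bp on either side held 5.11%. Under reciprocal overlap, with these gained peaks included, the median score was 192 and the median width 347 bp. In the central 200 bp the median longest run was 37 bp. An added comparison over the central 200 bp, chosen after seeing the data, moved the difference from recurring peaks to −32.6 points for CA tracts. From input-only peaks the difference went to 8.19 points for alternating tracts, 1.72 for CACG tracts, 3.98 for CpG inside tracts and −18.6 for purine or pyrimidine runs, and it reversed for CA tracts, to −17.1 points. Apart from the definition of reciprocal overlap, what lies behind the shifts was not tested.

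Limits: the 100K list cannot tell an unbound site from one missed with fewer cells or reads or another chromatin preparation. With 1 library per group, there is no estimate of the spread between libraries. The score is a −log10 q-value that grows with depth. Repeats that cannot be mapped uniquely are under-represented, and peaks were not compared with signal tracks.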

Other observations

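Members lay far apart as a rule, with a median of 2026845 bp between neighbours on a chromosome, but 13 of 527 neighbouring pairs were within 1000 bp of each other and 19 within 10000 bp. At 35 of the 548 members, 10 or more separate alternating tracts lay in 1 peak, and 40 members held more than 20 CpG sites. Oit1 held a pair (chr14:8359042-8360362 in all) with scores of 125 and 393 and longest tracts of 169 and 133 bp, and Pik3c2g held one with 116 and 363, each in a gene named after its values were seen.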
